A study of Rattus norvegicus with 18 samples.

Results

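H19 and 9 other imprinted genes (Igf2, Igf2r, Meg3, Dlk1, Cdkn1c, Peg3, Mest, Grb10 and Plagl1) were followed by name through the expression tables and m6A peak lists of rat H9c2 cells. Of the 10 genes, 9 were among the 17455 genes of the expression tables, and 7 of these had a mean normalized count above 0. The RNA of Meg3 was not analysed here, and Dlk1 and Cdkn1c were listed at 0 in both tables. By name, 17 of 9866 m6A peaks in the bufalin list and 16 of 9170 in the periplocin list belonged to these genes. H19 was selected on its measured RNA change with bufalin, so its values in that comparison, and in the comparison of both compounds that contains it, are given as a description without a test. The other genes were taken because they are imprinted, with earlier results of these data known.

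H9c2 is a myoblast line from rat heart, labelled as wild type and grown as control cells, with bufalin or with periplocin. Both compounds are cardiotonic steroids, which block the sodium and potassium pump. Bufalin carries no sugar, and periplocin has sugars attached. The study addressed the part of m6A, a methyl group on adenosines within RNA, in the harm these compounds do to heart cells. Its 18 samples fell into 6 groups of 3, since each of the 3 conditions had IP samples (RNA pulled down with an m6A antibody) and input samples. The labels give neither dose nor time, so it is unknown whether the compounds were matched, and their values are set beside each other on that footing. In bulk RNA, fewer cells that express a gene and less RNA per cell cannot be told apart.

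Imprinted genes are expressed mainly from the copy inherited from 1 parent, under marks set in the germ line. H19 is a long noncoding RNA made from the maternal copy, and its neighbour Igf2, a fetal growth factor, is made from the paternal copy; both share enhancers. H19 is abundant in fetal muscle and heart and is shut down in most tissues after birth. Its RNA is also the precursor of miR-675. Igf2r clears Igf2 from the cell surface, Grb10 dampens insulin and IGF receptor signalling, Cdkn1c is a cell cycle inhibitor, and Plagl1 and Peg3 are zinc finger proteins that bind DNA. Many of these genes are active before birth and fall together afterwards.

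The microRNA precursors that lie inside the measured genes H19 and Igf2 are shown here for their position. Whether the measured Igf2 RNA holds the miR-483 hairpin was not analysed here. The mature microRNAs were not measured. Sequences are those of RefSeq on build GRCr8, 5′ to 3′, with the seed (bases 2 to 8) in capitals. The miR-675 hairpin lies in H19 at chr1:207161752-207161835 and the miR-483 hairpin in Igf2 at chr1:207247859-207247931, both on the minus strand.
rno-miR-675-5p: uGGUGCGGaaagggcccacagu
rno-miR-675-3p: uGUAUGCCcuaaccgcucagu
rno-miR-483-5p: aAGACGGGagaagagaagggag
rno-miR-483-3p: cACUCCUCcccucccgucuugu
The 4 seeds differ from one another, so no 2 of these microRNAs share a seed.

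The deposited tables hold 1 comparison with control per gene or peak and no value per library. Group levels given below were therefore worked out from the authors' mean normalized count and log2 fold change and are called fitted levels. The errors are the authors' standard errors (SE), and the intervals are 95% Wald intervals from them. Nothing in the labels ties the replicates to separate cultures, so the spread behind each p-value may be technical. The sources used here do not state whether input or IP libraries went into the expression tables. Both comparisons use the same control samples. Of 8 skeletal myoblast markers, 3 had a mean of at least 10 in both tables. Myod1, a regulator of the muscle lineage, Des, the muscle filament desmin, and Myh3, an embryonic myosin, had means of 716, 1037 and 1212 normalized counts in the bufalin table. Myog, a later regulator of muscle differentiation, had means of 12.1 and 9.98 in the bufalin and periplocin tables, and Chrna1, a subunit of the muscle acetylcholine receptor, 7.95 and 4.67. Myf5, Pax7 and Actc1 were listed at 0, and so was Myl7 among the cardiomyocyte genes, of which 7 of 11 had a mean of at least 10 in both tables. Of 4 endothelial, 4 leukocyte and 4 epithelial markers, 1, 2 and 1 reached that mean, and 5 of 6 fibroblast and smooth muscle markers did.

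H19 RNA was higher with bufalin and near the control level with periplocin. Its fitted level was 12796 normalized counts in control and 18256 with bufalin in the bufalin table, and 12397 in control and 12365 with periplocin in the periplocin table. The fitted control levels differ because each table was scaled on its own; over 10602 genes the offset was 0.05 (log2). With bufalin H19 stood at 1.43-fold of control (interval 1.34 to 1.52), against 0.997-fold (interval 0.943 to 1.06) with periplocin. For periplocin the authors' deposited table gave a log2 change of -0.00 ± 0.04 (SE) and an unadjusted p of 0.930 by the Wald test of DESeq2. H19 stood 0.52 ± 0.05 (SE, log2) higher with bufalin than with periplocin, or 1.43-fold (interval 1.35 to 1.52).

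The spread of H19 between libraries implied by its SE was small. From the SE, the variation between libraries beyond counting noise was 4.02% of the level by the bufalin table and 3.42% by the other, taken as equal in treated and control groups. This is a value of the authors' model, and no level in a single library was available to set beside it. Of the 5429 genes whose mean reached 1000 in the bufalin table, 98.5% had an SE at least as large as that of H19, and 95.5% of 5376 did in the periplocin table. H19 was thus measured more tightly than most genes with a mean of 1000 or more in both tables. Its own mean lay far above 1000, and it was not ranked among genes of its own level.

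The m6A peak on H19 did not pass the test for a change in either comparison. In the bufalin list it covered 248 bases, chr1:215746388-215746635 on build rn6, on the minus strand, and in the periplocin list 100 bases, chr1:215746536-215746635, so that both share their 5′ end. Its fold enrichment, read as IP over input, was 1.44 in the bufalin list and 1.58 in the periplocin list, where the medians of all peaks were 1.82 and 1.80. Only 16.9% and 29.4% of the peaks in the lists had a lower enrichment. The log10 p of enrichment was -27.4 in both lists, and 0.395% and 0.425% of peaks had a p at or below it. The peak was thus among those with the smallest p and among the weaker in enrichment. H19 RNA is abundant, and its peak was not compared with peaks on RNA of a similar level. Its log2 change of m6A, read as treated over control, was 0.04 with bufalin (p = 0.833) and 0.10 with periplocin (p = 0.326), as the authors' deposited lists give it, with an FDR of 1 for both. The lists give no SE for this change, and the position of the peak within the H19 transcript was not analysed here.

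**Figure D1:**
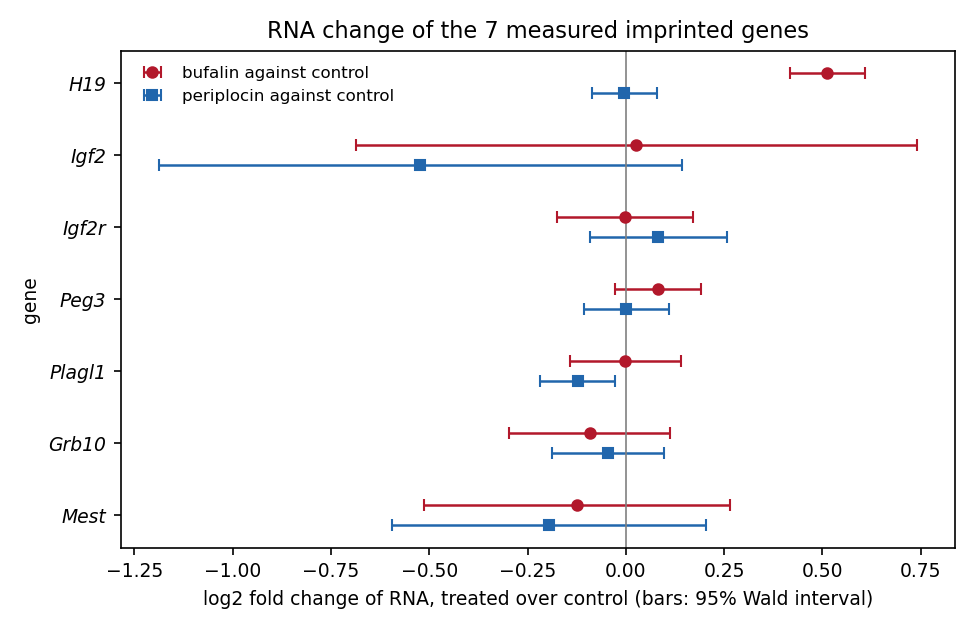
Log2 fold change of RNA against control (x axis) for the 7 measured imprinted genes (y axis), as points with 95% Wald intervals, circles for bufalin and squares for periplocin. Only the H19 point for bufalin, at 0.51, lies above 0.10; the intervals of Igf2 are the widest, and that of Plagl1 with periplocin, from -0.22 to -0.03, does not reach 0.

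Igf2, the neighbour of H19, was not shown to change, and its error was much larger. Its fitted level was 1627 normalized counts in control and 1657 with bufalin in the bufalin table, and 1576 in control and 1097 with periplocin in the periplocin table. These levels correspond to 1.02-fold (interval 0.621 to 1.67) with bufalin and 0.696-fold (interval 0.439 to 1.10) with periplocin. Both intervals hold the control level, and that for bufalin also holds the 1.43-fold seen for H19, so a change of that size in Igf2 was not detectable with this spread. For periplocin the authors' deposited table gave -0.52 ± 0.34 (SE, log2), adjusted p 0.912 by the Wald test of DESeq2, and for bufalin 0.03 ± 0.36 with no adjusted p. Bufalin minus periplocin, the difference was 0.55 (log2, interval -0.14 to 1.24), adjusted p 0.914 by the approximate Wald test.

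The variation of Igf2 between libraries beyond counting noise, worked out from the SE as for H19, was 30.8% of its level by the bufalin table and 28.7% by the other. Among genes whose mean reached 1000, 22 of 5429 had an SE as large as that of Igf2 or larger, itself counted, with bufalin, and 18 of 5376 did with periplocin. The median SE of these genes was 0.08 and 0.07. Igf2 was thus among the least tightly measured genes with a mean of 1000 or more, and it was not ranked among genes of its own level. Its levels in single libraries were not analysed here.

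**Figure D2:**
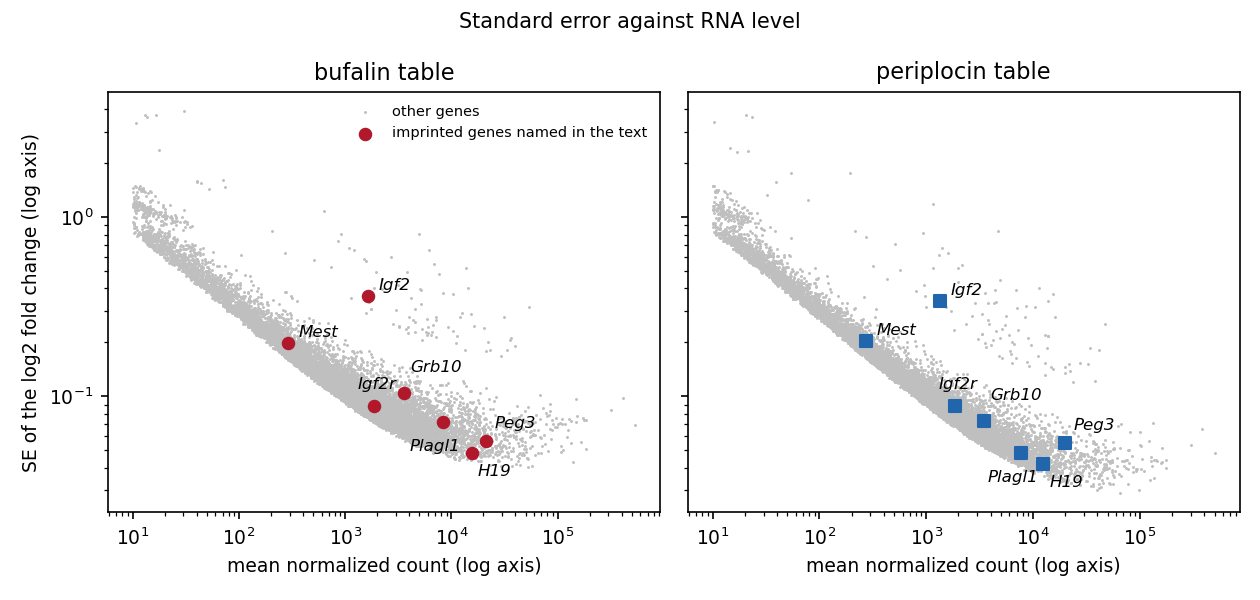
Standard error of the log2 fold change (y axis, log scale) against the mean normalized count (x axis, log scale), for genes whose mean reached 10 (grey) and the 7 imprinted genes (coloured), in the bufalin table (left) and the periplocin table (right). Igf2 stands far above genes of a similar level in both tables, at 0.36 and 0.34, while H19 lies at the lower edge, at 0.05 and 0.04.

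Igf2r, the receptor that carries Igf2 to the lysosome, stayed within its error. Its fitted level was 1878 in control and 1877 with bufalin, and 1820 in control and 1928 with periplocin. The folds were 0.999 (interval 0.886 to 1.13) and 1.06 (interval 0.939 to 1.19). Grb10, the receptor adaptor, had fitted levels of 3665 in control and 3438 with bufalin, and of 3551 and 3442 in the periplocin table. Its folds of 0.938 (interval 0.813 to 1.08) and 0.969 (interval 0.878 to 1.07) lay slightly below the control level with intervals that hold it.

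Of the zinc finger genes, Peg3 was at 20420 normalized counts in control and 21612 with bufalin, and at 19785 and 19803 in the periplocin table. Its fold was 1.06 (interval 0.980 to 1.14) with bufalin, and with periplocin its log2 change was 0.00 ± 0.06 (SE, interval -0.11 to 0.11). A rise of Peg3 like that of H19 thus lies outside its interval for either compound. Plagl1, which stops cell division when overexpressed and is a hub of the imprinted gene network, had fitted levels of 8312 in control and 8303 with bufalin, and of 8054 and 7401 with periplocin. For periplocin the authors' deposited table gave a log2 value of -0.12 ± 0.05 (SE), unadjusted p 0.0121 and adjusted p 0.463 by the Wald test of DESeq2, so it did not pass. With bufalin it was -0.00 ± 0.07, with an adjusted p of 0.997.

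Mest, a gene of the hydrolase family expressed from the paternal copy, had the lowest count of the measured genes. Its fitted level was 301 in control and 276 with bufalin, and 292 and 255 in the periplocin table. Its log2 changes of -0.12 (interval -0.51 to 0.27) and -0.20 (interval -0.59 to 0.20) were both within the error.

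With bufalin, 4 of the 7 measured genes had an adjusted p in the authors' deposited table, and H19 was the 1 called at 0.05, where 0.301% of 3321 genes were called; H19 was chosen for this value, so nothing is read from the count. With periplocin all 7 had an adjusted p and 0 were called by the authors' DESeq2 test, where 0.538% of 12445 genes were called. At an unadjusted p under 0.05 there was 1 gene in each table, H19 with bufalin and Plagl1 with periplocin, where 644 of 12876 and 806 of 12906 genes passed. The changes of the 6 genes other than H19 ran from -0.12 to 0.08 (log2) with bufalin and from -0.52 to 0.08 with periplocin. Their standard errors ran from 0.06 to 0.36 and from 0.05 to 0.34.

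Besides H19, 6 genes were compared between the compounds, and 0 of them passed the approximate Wald test with p adjusted over 10602 genes, where 0.396% of genes passed. None of the 6 had an unadjusted p under 0.05. The nearest was Plagl1, which was 0.12 higher with bufalin than with periplocin (log2, interval -0.00 to 0.24, adjusted p 0.787). The intervals of the other differences were -0.03 to 0.19 for Peg3, -0.26 to 0.09 for Igf2r, -0.22 to 0.13 for Grb10 and -0.32 to 0.47 for Mest. These intervals do not show that the compounds act alike; they bound the difference.

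Peg3 RNA carried most of the m6A peaks of the group. The bufalin list held 11 peaks on Peg3 with 2556 covered bases and the periplocin list 10 with 2455, both spread over 8455 bases of the plus strand of chromosome 1 in build rn6. Only 19 of 5122 genes with a peak had at least as many in the bufalin list and 21 of 4879 in the periplocin list. Of genes with a peak, 52.9% and 54.2% had 1. The count of Peg3 was not set against genes of a similar RNA level or length. Some Peg3 peaks share the same log10 p of enrichment, such as -9.78 in the bufalin list, so they may not have been scored separately. The strongest Peg3 peak, at chr1:70233758-70234207 in both lists, had a fold enrichment of 3.29 and 3.30, and 97.7% and 98.1% of all peaks had a lower one. The weakest started 50 bases apart in the lists, at chr1:70230365-70230514 and chr1:70230415-70230514, with enrichments of 1.11 and 1.10. Enrichment along Peg3 thus had the same high and low points in both lists, which share the control libraries.

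The changes of m6A along Peg3 were small and of both signs. With bufalin they ran from -0.26 to 0.47 (log2) with a median of -0.01, and 5 of 11 were above 0. With periplocin they ran from -0.36 to 0.33 with a median of 0.05, and 8 of 10 were above 0. The smallest p-values in the authors' deposited lists were 0.0708 for the peak at chr1:70231113-70231313 with bufalin and 0.0676 for the peak at chr1:70236901-70237051 with periplocin, at changes of 0.47 and -0.36. The first of these overlapped 0 peaks of the periplocin list, and the second had a partner with bufalin at -0.26.

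Plagl1 had 3 peaks in the bufalin list and 4 in the periplocin list, over 3596 and 3945 bases of the plus strand of chromosome 1. The strongest, at chr1:7255045-7255195 in both lists, had enrichments of 2.54 and 2.49 and changes of -0.02 and -0.07. The first peak of Plagl1 was at -0.22 with bufalin and 0.04 with periplocin, and neither change passed. The additional periplocin peak, at chr1:7256345-7256494, had an enrichment of 1.44 and a change of -0.29.

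**Figure D3:**
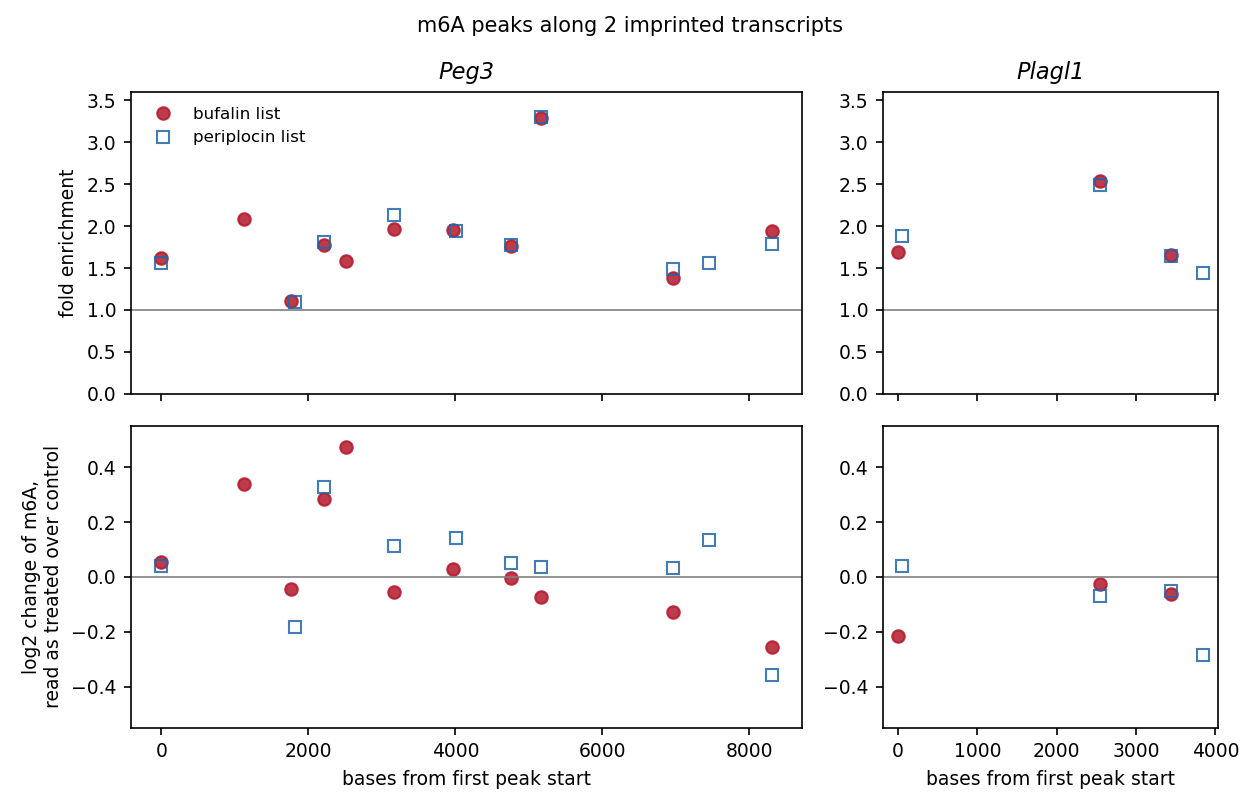
Fold enrichment (upper row) and log2 change of m6A (lower row) of each peak on Peg3 (left) and Plagl1 (right) against the start of the peak in bases from the first peak start, with filled circles for the bufalin list and open squares for the periplocin list. The enrichment of Peg3 is highest at 3.29 and 3.30 in the same peak, and the changes lie on both sides of 0, between -0.36 and 0.47.

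Igf2r had 1 peak in each list, and Grb10 had 1 in the bufalin list and none by name in the periplocin list. The Igf2r peak at chr1:48261749-48262891, in 2 blocks with 151 bases, had enrichments of 1.46 and 1.51 and changes of -0.27 with bufalin (p = 0.180) and -0.24 with periplocin (p = 0.275) in the authors' deposited lists. The Grb10 peak at chr14:92024498-92024748 of the bufalin list had an enrichment of 1.74 and a change of 0.04. Igf2 and Mest, both with RNA, had 0 peaks by name in either list. Of 923 other genes with a mean within 1.2 times that of Igf2, 61.6% had a peak in the bufalin list, and 31.0% of 564 genes near Mest did. In the periplocin list 545 of 951 and 155 of 553 genes did.

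Over all peaks of the group, 0 of 17 with bufalin and 0 of 16 with periplocin passed an FDR of 0.05 by the authors' test, where 0.0304% and 0.0436% of all peaks did, and 0 in each list had an unadjusted p under 0.05, against 300 of 9866 and 309 of 9170 of all peaks. The median change was -0.02 and 0.04, against -0.02 and -0.01 over all peaks. Of these peaks 15 of 17 with bufalin and 14 of 16 with periplocin overlapped a peak on the same gene in the other list. They formed 15 pairs, and 9 pairs had the same start and end. Both lists share the control libraries, and the overlap over all peaks was not analysed here. Nothing particular to these genes is therefore read from it.

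The wider group of imprinted genes gave no call, where few could be called with bufalin. Of 74 further imprinted genes, 54 were in the tables, and 41 had a p with bufalin and 42 with periplocin. An adjusted p, which a call needs, was given for 10 with bufalin and 38 with periplocin. By the authors' DESeq2 test 0 were called in either comparison, where 0.301% and 0.538% of all genes with an adjusted p were called. An unadjusted p under 0.05 belonged to 2 (4.88%) and 4 (9.52%), against 644 of 12876 and 806 of 12906 of all genes. Where the mean reached 10, 14 of 32 were above 0 with bufalin and 13 of 31 with periplocin, against 5338 of 10674 and 5292 of 10688 of all genes, with medians of -0.03 and -0.06 (log2), against 0.00 and -0.00 over all genes with that mean. In the authors' deposited table for bufalin the 2 were Dhcr7, the last enzyme of cholesterol synthesis, at -0.23 ± 0.08 (SE) and Sgce, a sarcoglycan of the muscle membrane, at 0.21 ± 0.10. In that for periplocin the 4 were Pon2, a lactonase, at -0.21 ± 0.08, Gatm, the first enzyme of creatine synthesis, at -0.32 ± 0.13, Gnas, the stimulatory G protein, at -0.10 ± 0.04 and Cobl, an actin nucleator, at -0.15 ± 0.07. Dhcr7 and Sgce have no adjusted p for bufalin, and the other 4 did not pass after adjustment. The extreme values where the mean reached 10 belonged to sparse transcripts. In the authors' deposited tables they were 1.34 ± 1.44 for Slc22a3 and -0.41 ± 0.79 for Smoc1 with bufalin, and 0.66 ± 0.48 for Nnat and -0.41 ± 0.49 for Usp29 with periplocin.

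Of 21 genes that take part in IGF signalling around Igf2, 15 had a p in each comparison, while adjusted p-values were given for 7 of them in the bufalin table and 15 in the other. By the authors' DESeq2 test 0 were called, where 0.301% and 0.538% of all genes with an adjusted p were called. The medians were 0.05 and 0.01. At an unadjusted p under 0.05 there was 1 of 15 per comparison (6.67%), against 644 of 12876 and 806 of 12906 of all genes. In the authors' deposited tables it was Insr, the insulin receptor, at 0.17 ± 0.07 with bufalin, and Irs2, an adaptor of that receptor, at 0.18 ± 0.08 with periplocin. The highest value in both was that of Igfbp5, a muscle IGF-binding protein, at 0.28 ± 0.21 and 0.34 ± 0.20, and the lowest that of Igf1, at -0.73 ± 1.02 and -0.77 ± 1.01, each with an unadjusted p above 0.05.

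Of 23 genes that set or keep imprints, 18 had a p in each comparison, while adjusted p-values were given for 10 of them in the bufalin table and 18 in the other. Dnmt3a, the enzyme that writes DNA methylation at imprinted regions in the germ line, rose with bufalin as the 1 called, by 0.29 ± 0.07 (SE, log2) with an adjusted p of 0.0101 in the authors' deposited table by DESeq2. With periplocin it stood at 0.09 ± 0.05 with an adjusted p of 0.771 in the authors' deposited table, and the difference of 0.20 ± 0.06 between the compounds had an adjusted p of 0.107 by the approximate Wald test. Dnmt3b, its relative, had the highest value, 0.41 ± 0.26 and 0.48 ± 0.25, and Ctcfl, the germ line relative of the insulator protein Ctcf, the lowest, -0.50 ± 0.78 and -0.61 ± 1.16, each with an unadjusted p above 0.05. Dnmt3a was also the 1 gene of this list with an unadjusted p under 0.05 in each comparison, and with periplocin 0 were called by DESeq2. That is 5.56% of the list at an unadjusted p, against 644 of 12876 and 806 of 12906 of all genes, and of all genes 0.301% and 0.538% were called. The list medians were 0.00 and 0.01. This list was chosen with earlier results of these data known, so nothing is read from its 1 call. DNA methylation was not measured.

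Of 15 genes of the Notch pathway, on which Dlk1 acts, 15 had a p in each comparison, but 2 had an adjusted p with bufalin, so a call was hardly possible there, and 15 had one with periplocin. By the authors' DESeq2 test 0 were called, where 0.301% and 0.538% of all genes with an adjusted p were called. At an unadjusted p under 0.05 there was Notch1 alone with bufalin and 0 genes with periplocin. Of all genes, 644 of 12876 and 806 of 12906 had an unadjusted p under 0.05. Notch1 stood at 0.25 ± 0.11 with bufalin in the authors' deposited table. Where the mean reached 10, the highest values were 0.38 ± 1.14 for Dll1 with bufalin and 0.36 ± 0.19 for Hes1 with periplocin, and the lowest -2.18 ± 1.18 for Notch4 with bufalin and -0.50 ± 0.52 for Hey1 with periplocin. The medians were 0.08 and 0.13.

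In the RefSeq order, 6 of the 10 imprinted genes lie on rat chromosome 1, with H19, Igf2 and Cdkn1c in 1 cluster. The nearest measured genes beside H19 were Lsp1, Tnnt3 and Mrpl23 on 1 side and Igf2, Tssc4 and Phlda2 on the other. With bufalin their log2 changes were 0.04 ± 0.08 (SE) for Lsp1, a leukocyte actin-binding protein, 0.13 ± 0.11 for Tnnt3, fast skeletal troponin T, and -0.04 ± 0.17 for Mrpl23, a mitochondrial ribosomal protein. Beyond Igf2, Tssc4 was at -0.15 ± 0.21 and Phlda2, an imprinted growth inhibitor of the placenta, at 0.04 ± 0.61. With periplocin these genes stood at 0.09, 0.21, -0.15, -0.11 and -0.07 in the same order, and 0 of the 6 neighbours had an unadjusted p under 0.05 in either comparison. Over the 10 genes there were 43 neighbours that were not members. Of the 14 with an adjusted p with bufalin 0 were called by the authors' DESeq2 test, and 3 of the 43 had an unadjusted p under 0.05. Over all genes 0.301% were called with bufalin and 0.538% with periplocin, and 644 of 12876 and 806 of 12906 passed at an unadjusted p under 0.05. For periplocin 1 of 43 was called and 6 had an unadjusted p under 0.05. The gene called was Dync1h1, the heavy chain of dynein, a neighbour of Dlk1 and Meg3, at 0.21 ± 0.04 with an adjusted p of 2.45e-05 by DESeq2 in the authors' deposited table. With bufalin that gene stood at 0.15 ± 0.05 with an adjusted p of 0.0986 by DESeq2 in the authors' deposited table.

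**Figure D4:**
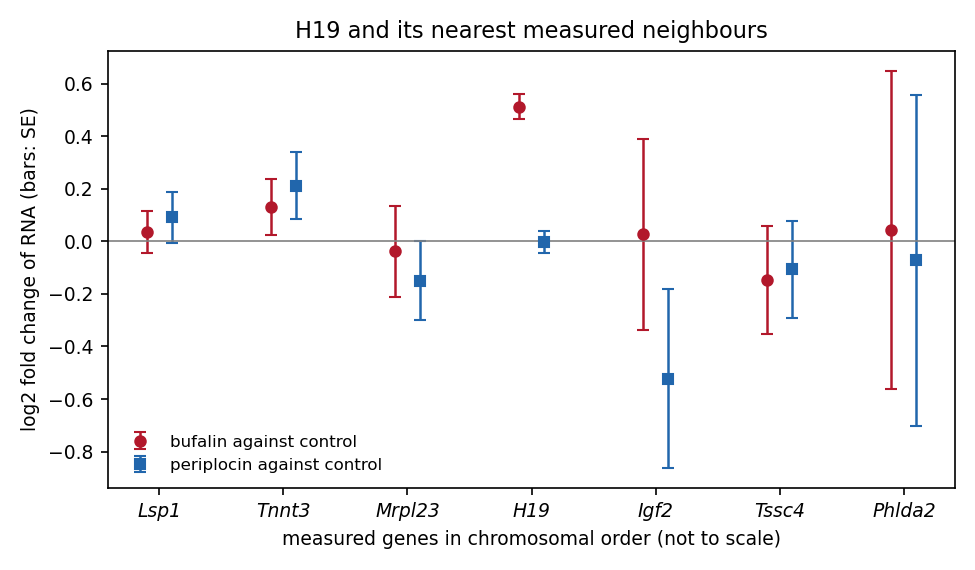
Log2 fold change of RNA with its SE (y axis) for H19 and the 3 nearest measured genes on each side in chromosomal order (x axis), circles for bufalin and squares for periplocin. H19 with bufalin, at 0.51, stands above its neighbours, whose bufalin values lie between -0.15 and 0.13; the error bars of Igf2 and Phlda2 are wide.

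Genes whose pair of changes lay near that of H19, by a rule that ranked 8421 genes whose mean reached 200 in both tables, were Gpc5, Slc5a3, Ripor2 and Rsad2. The likeness was the Euclidean distance over 2 log2 changes, which share the controls, and it ran from 0.03 for Gpc5 to 0.12 for Rsad2. Slc5a3, a myo-inositol transporter, was at 0.44 ± 0.10 (SE) with bufalin and 0.03 ± 0.12 with periplocin. Gpc5, a glypican, was at 0.53 ± 0.21 and 0.02 ± 0.20, and Ripor2 at 0.44 ± 0.20 and 0.06 ± 0.18. Rsad2, an interferon-induced antiviral enzyme, was at 0.44 ± 0.63 and -0.10 ± 0.31. For each of these genes both SEs were larger than its distance from H19, so its place in the ranking is within the error. None of them had an adjusted p with bufalin.

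Start regions of 8 of the 10 genes, 250 bases before to 50 after the RefSeq start, gave 9 windows on build GRCr8. H19 and Cdkn1c had no window, so these values do not cover them, and Igf2 had more than 1. The median of the 9 windows was 19 CpG and 64.7% G and C, against 7 and 51.7% over 33469 windows, and 8 of the 9 had more CpG than that median. The letters GGGGCCCC, a core motif of the Plagl1 protein that reads the same on both strands, were in 1 of the 9 windows, that of Peg3, and in 0.858% of all windows. The Peg3 window, chr1:76130744-76131043 on the plus strand, is shown because it holds these letters, in capitals, 213 bases before the start.
Peg3: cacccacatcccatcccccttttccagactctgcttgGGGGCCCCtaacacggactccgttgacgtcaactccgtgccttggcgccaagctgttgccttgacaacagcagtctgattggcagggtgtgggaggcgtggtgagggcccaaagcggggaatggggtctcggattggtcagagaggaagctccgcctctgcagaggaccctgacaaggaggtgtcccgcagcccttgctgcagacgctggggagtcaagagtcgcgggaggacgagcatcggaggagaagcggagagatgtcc
The match is a description of letters and not a binding site.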

How the data were processed

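RNA of 18 samples, assigned to groups by their labelled treatment and by IP or input, was sequenced with a stranded mRNA kit that uses unique molecular identifiers, per the labels. HISAT2, StringTie, DESeq and build rn6 are named in the submitters' processing notes; their versions are not stated there, nor is the peak caller. The signal deposited in the expression tables is a mean of counts after the authors' scaling by size factors, over the libraries of a comparison. The log2 fold changes, their SE, the Wald score, the p-values and the adjusted p-values are the authors' DESeq2 values, per the file headers. The fold enrichment (ratio) and log10 values of each peak are the authors', per the file headers. Depth per library was not analysed here.

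In the periplocin table the score has the opposite sign to the fold change in all 12913 genes, and the sign of the fold change was used. Read as treated over control, all of 10602 genes had fitted control means that matched between the tables to 1%, once an offset of 0.05 (log2) was removed. The bufalin table gives an adjusted p for 3321 genes, all with a mean of at least 2259.

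The difference between the compounds was tested, where both means reached 10, by an approximate Wald test. Its SE joins the counting noise of both treated groups with a spread worked out from the SE of each comparison. That spread rests on treated and control libraries together. The test was also run on simulated data drawn with a known spread, so that run did not check the estimate of the spread. P-values were adjusted by Benjamini-Hochberg. Calls are at 0.05. The members and lists were chosen with earlier results of these data known. Named genes were all members, called or extreme members of each list, neighbours of H19 and called neighbours, and the 5 genes most like H19, of which 1 is not reported here; list genes with an unadjusted p under 0.05 were added after their values were seen. RefSeq (GRCr8) gave gene order, placing 98.8% of genes, and sequences. Alternatives covered thresholds, adjustment, filters, centring, the SE of the difference and peak overlap. Peak sequences, which need rn6, were left out. The software was pandas 2.3.3 and numpy 2.4.6 under Python 3.11.15, with scipy 1.17.1, and figures came from matplotlib 3.10.9.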

Additional observations from a re-analysis of the deposited data

Results flagged for a closer look

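Among the genes named, H19 and Slc5a3 were flagged for a gap between the compounds that was large beside its SE. Larger gaps, such as 0.55 ± 0.35 (SE, log2) for Igf2, had wider errors. Bufalin minus periplocin, the log2 value was 0.52 ± 0.05 for H19 and 0.41 ± 0.11 for Slc5a3. H19 was chosen for its bufalin change and Slc5a3 for its likeness to H19, so the choice fixes these gaps, and they are a description with no test.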

How the results depend on the processing

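Over 40 results, 111 values were obtained under alternative settings. The settings covered other thresholds of adjusted p or FDR, other sets of genes for the adjustment and centring of changes. Further ones were a minimum enrichment of 2, a stricter peak overlap and a minimum mean of 200. All 111 were judged the same as their main value. For a gene, the call and, where called, its direction had to be kept. Counts had to stay close, as with 12 pairs of peaks under the stricter overlap against 15. Medians had to move by less than the standard deviation of the peak changes or the median SE of the list. This says little about stability, since thresholds and adjustment leave a gene's log2 change as it is, H19 was chosen for its value, and counts of 0 have little room to move. The comparison of the compounds called 42 genes over the whole table and 8 with an upper limit of the SE that ignores the shared controls. No paired analysis was possible because the deposited tables hold comparisons and no values per library; for the same reason leaving out a library was not possible. Errors were wide for Mest and the sparse genes of the lists, which had low counts. For Mest the variation between libraries beyond counting noise, worked out from the SE, was 15.8% of its level by the bufalin table and 16.2% by the other.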

Other observations

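Igf2 was 1 of 13 abundant genes (mean 1000 or more) whose SE was at least that of Igf2 in both tables, named here after their values were seen. The others were Cebpb, Egr1, Fos, Gon7, Hmox1, Kitlg, Nr1d1, Slc2a1, Son, Szrd1, Tcf3 and Ube2e2. Egr1 and Fos are immediate early transcription factors, Hmox1 is the inducible heme oxygenase and Slc2a1 the main glucose transporter of growing cells. With bufalin the changes of the 13 genes in the authors' deposited table ran from -0.42 (log2) for Cebpb to 1.12 for Hmox1, and with periplocin from -0.52 for Igf2 to 1.03 for Fos. Egr1 stood at -0.06 ± 0.39 (SE) with bufalin and 0.81 ± 0.39 with periplocin in these tables, and Fos at 0.63 ± 0.49 and 1.03 ± 0.39. Hmox1 stood at 1.12 ± 0.55 and 0.45 ± 0.45, and Slc2a1 at 0.80 ± 0.60 and 0.30 ± 0.54.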
